A study of Homo sapiens with 12 samples.

Results

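PLAU (urokinase), PLAT (tissue plasminogen activator), PLAUR (the urokinase receptor), F3 (tissue factor), TFPI (tissue factor pathway inhibitor) and THBS1 (thrombospondin 1) are 6 of the 57736 genes in the count tables of HepG2 and Ls174 cells with or without an extract of the red seaweed Hypnea musciformis (HME). They were found by gene name, and the counts of all 3′ regions of each gene were summed. They were chosen with results of the same comparisons in view, namely the change with HME in each line and the difference between the lines, so their values in these comparisons are a description and carry no test.

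Urokinase and tissue plasminogen activator are serine proteases that cut plasminogen to plasmin, the enzyme that dissolves fibrin and degrades extracellular matrix. The urokinase receptor holds urokinase at the cell surface, and this system is best known in migrating and invading tumour cells. Tissue factor is the membrane receptor of coagulation factor VII and starts clotting, TFPI blocks the complex of tissue factor with factors VII and X, and thrombospondin 1 is a secreted matrix glycoprotein that binds integrins, CD36 and CD47. Hepatocytes make plasminogen and most of the clotting factors of the blood.

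HepG2 cells derive from a human hepatocellular carcinoma and Ls174 cells from a human colon cancer, and both are labelled as wild type. The treated cells of each line received HME at 0.7 mg/ml, labelled as the IC50 concentration, for 24 h (the study's methods give a slightly different concentration), and the control cells of the same line were not given the extract. Each of the 4 groups has 3 biological replicates, and each tissue is represented by a single tumour cell line in culture. The libraries read the 3′ end of polyadenylated RNA, so long and short transcripts can be counted alike.

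The 12 libraries held between 1790841 and 3656662 counts. Expression values are CPM, read counts scaled to the size of the library, after TMM normalization, given as mean ± SD of 3 libraries, and 3 counts in a library corresponded to between 0.764 and 1.85 CPM. The sum of 12 liver markers was 21700 to 33800 CPM in HepG2 libraries and 24.5 to 208 CPM in Ls174 libraries, and the sum of 12 colon epithelium markers was 392 to 517 CPM in Ls174 libraries and 69.9 to 208 CPM in HepG2 libraries. Of the liver sum in Ls174 libraries, HNF4A gave 23 to 58 CPM. Most of the colon sum in HepG2 libraries was VIL1, at 52.5 to 186 CPM, against 42.1 to 78.7 CPM in Ls174 libraries. HepG2 control 2 and Ls174 control 1 lay apart from their replicates, with mean Euclidean distances on the log2 scale of 49.6 against 36.8 and 37.1, and of 73.8 against 44.6 and 45.8. HepG2 HME 2 held 1130 CPM of 12 fibroblast and stroma markers, against 48.0 and 52.6 CPM in the other HME libraries and 29.7 to 87.3 CPM in the HepG2 controls. Most of this sum was COL1A1 at 546 and COL1A2 at 404 CPM, with SPARC at 118, VIM at 60.2, POSTN at 3.5 and COL3A1 at 1.75 CPM. Other markers of the list were higher in HME 3 than in HME 2, but at few counts. LUM, THY1 and PDGFRB were at 0, 0.7 and 0 CPM in HME 2 (0, 2 and 0 counts). In HME 3, where 3 counts give 1.79 CPM, they were at 3.58, 4.78 and 1.79 CPM (6, 8 and 3 counts). DCN, PDGFRA and COL6A3 were at 0 in all HepG2 HME libraries. The changes of the 6 genes are given with and without these libraries where they bear on the value.

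The promoters of PLAU, PLAUR, F3, TFPI and THBS1 are printed so that their letters and motif matches can be compared. Each is the 250 bases before an annotated transcription start, from RefSeq (GRCh38.p14), and the same letters were found once in hg19, the assembly of the count tables, at the position given. Capitals mark matches to the AP-1 motif (TGANTCA), the Sp1 GC box (GGGCGG), the EGR1 motif (GCGTGGGCG) and the TATA box (TATAAA), searched on both strands except for the TATA box, which was searched on the strand shown.
PLAU, chr10:75670640-75670889, hg19, plus strand: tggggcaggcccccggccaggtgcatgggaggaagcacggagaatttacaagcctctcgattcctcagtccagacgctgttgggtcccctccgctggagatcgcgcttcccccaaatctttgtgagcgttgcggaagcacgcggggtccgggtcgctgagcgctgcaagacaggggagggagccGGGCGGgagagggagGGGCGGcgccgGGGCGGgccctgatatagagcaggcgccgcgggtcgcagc
PLAUR, chr19:44174322-44174571, hg19, minus strand: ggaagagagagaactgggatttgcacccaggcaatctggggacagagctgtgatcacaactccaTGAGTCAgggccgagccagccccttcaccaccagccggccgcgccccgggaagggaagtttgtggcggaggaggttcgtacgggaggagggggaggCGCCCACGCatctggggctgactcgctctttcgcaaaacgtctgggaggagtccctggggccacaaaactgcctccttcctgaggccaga
F3, chr1:95007316-95007565, hg19, minus strand: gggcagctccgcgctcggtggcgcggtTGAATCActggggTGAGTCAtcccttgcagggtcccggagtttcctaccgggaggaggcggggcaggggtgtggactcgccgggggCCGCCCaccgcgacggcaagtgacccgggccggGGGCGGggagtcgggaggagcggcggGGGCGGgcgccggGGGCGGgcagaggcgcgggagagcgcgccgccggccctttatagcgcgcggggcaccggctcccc
TFPI, chr2:188419163-188419412, hg19, minus strand: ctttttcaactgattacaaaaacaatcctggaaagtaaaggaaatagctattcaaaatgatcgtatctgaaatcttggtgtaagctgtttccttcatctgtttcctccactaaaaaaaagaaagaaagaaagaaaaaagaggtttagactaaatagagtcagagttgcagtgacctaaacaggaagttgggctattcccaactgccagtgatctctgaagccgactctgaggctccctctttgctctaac
THBS1, chr15:39873030-39873279, hg19, plus strand: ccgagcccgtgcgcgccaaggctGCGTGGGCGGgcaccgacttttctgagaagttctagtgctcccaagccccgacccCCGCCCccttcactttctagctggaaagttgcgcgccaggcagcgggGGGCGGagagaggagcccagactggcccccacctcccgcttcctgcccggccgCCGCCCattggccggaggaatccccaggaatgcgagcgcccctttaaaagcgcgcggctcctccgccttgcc

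The PLAU window shown held 3 matches to the GC box, between 66 and 35 bases before the start, and no match to the other motifs, while the window before a second annotated PLAU start (chr10:75670118-75670367) held no match to any of the 4 motifs. F3 held 4 GC boxes and 2 AP-1 matches, TGAATCA at 223 to 217 and TGAGTCA at 210 to 204 bases before the start. PLAUR held 1 AP-1 match, TGAGTCA at 186 to 180, and 1 EGR1 match on the opposite strand at 90 to 82 bases before the start. THBS1 held 4 GC boxes and 1 EGR1 match at 227 to 219, which overlaps the first of its GC boxes. No TATA box in these letters was found in these windows. Among 35114 windows of the same length before RefSeq starts, 6.57% held the AP-1 motif, 42.6% the GC box, 0.721% the EGR1 motif and 6.80% the TATA box. The TFPI window held none of these motifs. A match describes the letters only and says nothing of a factor's binding in these cells.

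PLAU, the urokinase gene (ENSG00000122861, chromosome 10, 75668935 to 75677254, plus strand), was far higher in HepG2 cells after HME and was not counted in any Ls174 library. It had 5.61, 2.47 and 4.82 CPM in the HepG2 controls (21, 4 and 12 counts) and 62.6, 65.1 and 108 CPM in the HME libraries (159, 186 and 180 counts), a mean of 4.30 ± 1.63 against 78.4 ± 25.2 CPM (SD, n = 3). Every HME library lay above every control. The fitted change was 17.6-fold, or 4.14 ± 0.42 on the log2 scale (SE). It was 3.95 without HepG2 control 2 and 4.28 without HepG2 HME 2, and ranged from 3.86 to 4.36 when each library was left out in turn. HepG2 HME 2 is the library with high COL1A1 and COL1A2, and the part of the fibroblast markers in the PLAU values was not tested. In Ls174 cells the gene was at 0 counts in all 6 libraries. The libraries come from whole cultures, in which fewer cells with a transcript and less of it per cell cannot be told apart. Set against the level that 3 counts give in the shallowest library of the group, PLAU was at least 2.93-fold higher in control HepG2 than in control Ls174 cells (floor 1.47 CPM) and at least 72.1-fold higher in HME-treated HepG2 than in HME-treated Ls174 cells (floor 1.09 CPM). Without molecular identifiers in the reads, such a floor reflects the error of counting and nothing else.

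**Figure D1:**
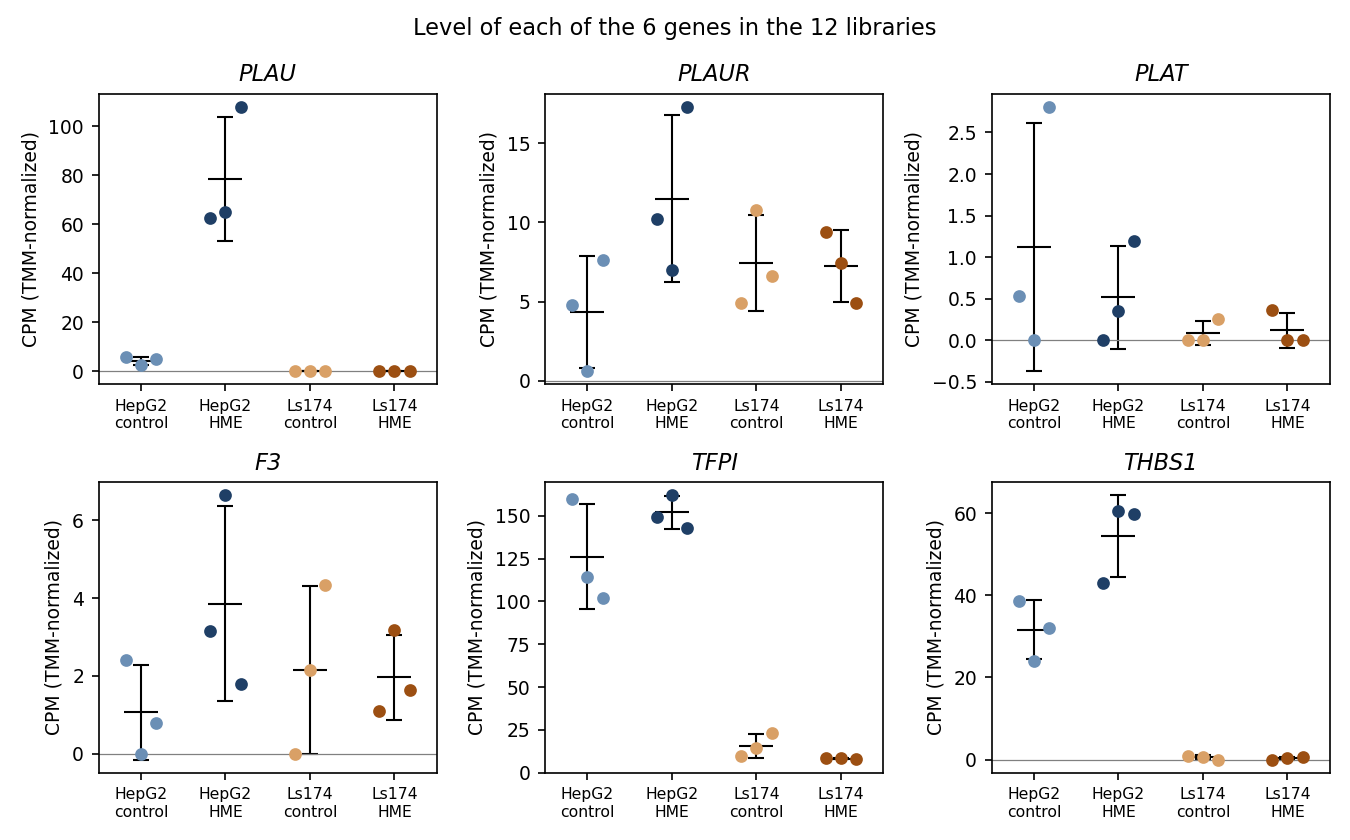
Level of each of the 6 genes in the 12 libraries, in TMM-normalized CPM on a linear axis that differs between panels. Points are libraries (replicates 1, 2 and 3 from left to right in each group) and black lines are the mean ± SD of 3 libraries. PLAU is at 62.6 to 108 CPM in HepG2 HME libraries, at 2.47 to 5.61 CPM in HepG2 controls and at 0 in Ls174 libraries, while TFPI and THBS1 separate the lines.

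PLAT, the gene of the second activator (ENSG00000104368, chromosome 8, 42032236 to 42065227, minus strand), was at the floor of the measurement. It had 2, 0 and 7 counts in the HepG2 controls, 0, 1 and 2 with HME, and 1 count in each Ls174 group. No fold is given, and a change of this gene was not detectable at this depth.

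PLAUR, the receptor gene (ENSG00000011422, chromosome 19, 44150247 to 44174699, minus strand), was low in every group. In HepG2 cells it had 4.81, 0.618 and 7.63 CPM without HME and 10.2, 7 and 17.3 CPM with it. The groups overlapped, since HME 2 lay below control 3. The fitted change was 2.52-fold (1.33 ± 0.64 on the log2 scale, SE), and it was 0.94 without HepG2 control 2, which held 1 count of the gene, and 1.63 without HepG2 HME 2. In Ls174 cells PLAUR had 4.89, 10.8 and 6.62 CPM without HME and 9.42, 7.43 and 4.90 CPM with it, overlapping groups with a fitted log2 change of -0.06 ± 0.46 whose sign turned with the library left out (-0.28 to 0.31). Between the untreated lines the groups overlapped as well, with a log2 difference of -0.71 ± 0.71 (HepG2 against Ls174).

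F3, the tissue factor gene (ENSG00000117525, chromosome 1, 94994729 to 95007315, minus strand), did not pass the filter on low counts in any comparison. It had 9, 0 and 2 counts in HepG2 controls and 8, 19 and 3 with HME, that is 1.07 ± 1.22 against 3.86 ± 2.51 CPM. In Ls174 cells it had 0, 7 and 17 counts without HME and 3, 9 and 5 with it, or 2.16 ± 2.16 against 1.97 ± 1.09 CPM. The groups overlapped in both lines, and the highest value of the HepG2 HME group belonged to HME 2. The depth allowed no statement on a change of F3.

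TFPI, the inhibitor of the tissue factor complex (ENSG00000003436, chromosome 2, 188328957 to 188430487, minus strand), was counted mainly in HepG2 cells. The HepG2 controls had 160, 114 and 102 CPM and the HME libraries 149, 162 and 143 CPM. These groups overlapped, with a fitted log2 change of 0.28 ± 0.30. The Ls174 controls had 9.78, 14.2 and 23.2 CPM and the HME libraries 8.34, 8.49 and 7.84 CPM. Every Ls174 HME library lay below every control, a fitted change of 0.516-fold (-0.95 ± 0.38 on the log2 scale). The change was -0.56 without Ls174 control 3 and -1.19 without Ls174 control 1. Ls174 control 3 also held the largest sum of liver markers of its line, 208 CPM against 24.5 and 58.4 CPM in the other controls. The HME libraries held 124, 38.6 and 50 CPM. HNF4A gave 23, 58 and 52.7 CPM of the control sums and 32.3, 37.5 and 38.6 CPM of the HME sums. The other liver markers lay mainly in control 3 and HME 1. ALB had 0, 0 and 44.8 CPM without and 16.3, 0 and 9.48 CPM with HME. In each Ls174 group as a whole, 12 of 12 liver markers had a count. The part of the liver markers in the TFPI values was not tested. Between untreated lines TFPI was 8.08-fold higher in HepG2 cells (3.01 ± 0.42 on the log2 scale), with no overlap. The difference was 3.06 without HepG2 control 2 and 2.77 without Ls174 control 1.

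THBS1, the thrombospondin 1 gene (ENSG00000137801, chromosome 15, 39873280 to 39891667, plus strand), followed the same division between the lines. It had 38.5, 24.1 and 32.1 CPM in the HepG2 controls and 42.9, 60.6 and 59.7 CPM with HME. The groups did not overlap, although HME 1 lay only slightly above control 1, and the fitted change was 1.73-fold (0.79 ± 0.31 on the log2 scale). It was 0.69 without HepG2 control 2 and 0.73 without HepG2 HME 2. In Ls174 cells it had 2, 2 and 0 counts without HME and 0, 1 and 2 with it. The log2 difference between untreated lines was 6.02 ± 0.73 and rested on 4 Ls174 counts. It ranged from 5.32 to 6.64 when each library was left out and was 7.67 when only the main 3′ region of the gene was counted, where 1 of the 4 Ls174 counts fell.

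**Figure D2:**
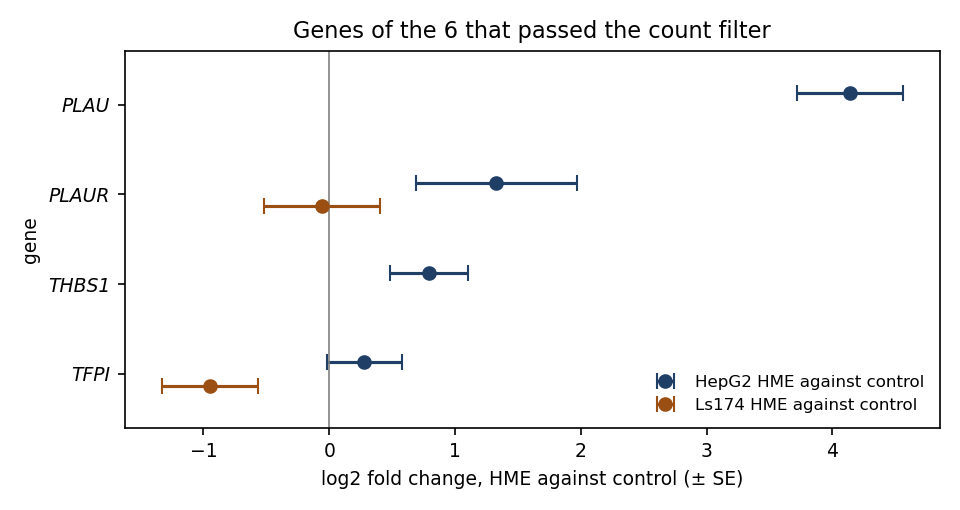
Log2 fold change of HME against control, with its SE, for the genes of the 6 that passed the filter on low counts (blue HepG2, brown Ls174). PLAU lies at 4.14 in HepG2 cells, PLAUR at 1.33 and -0.06, THBS1 at 0.79 and TFPI at 0.28 and -0.95.

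In HepG2 cells 4 of the 6 genes passed the filter and 1 of them, PLAU, was called higher with HME at an adjusted p under 0.05, where 2.77% of 11343 tested genes were called higher and 0.538% lower (314 and 61 genes). Scaling by library size alone, which shifted the median of all genes by -0.15 on the log2 scale, gave 245 higher and 161 lower, and DESeq2 gave 623 and 410. The groups did not overlap for 2 of the 4, PLAU and THBS1, both higher, against 15.5% of tested genes higher and 15.3% lower. In Ls174 cells 2 of the 6 passed, PLAUR and TFPI, and edgeR called 0 of them, with 1 at an unadjusted p under 0.05 and 0 called by DESeq2. There 0.318% of 11319 genes were called higher and 0.866% lower, and the groups did not overlap for 11.6% higher and 12.2% lower, the direction of TFPI. TFPI was called when Ls174 control 1 was left out, which raised the count from 0 to 1. Between the untreated lines 3 of the 6 passed and 2 of them, TFPI and THBS1, were called higher in HepG2 cells and did not overlap, where 14.2% of 11907 genes were called higher and 9.33% lower, and 22.3% and 20.4% did not overlap. The count was 3 without HepG2 control 2 or without any 1 Ls174 control. With a library left out the filter asks for fewer libraries. PLAU, at 0 in the Ls174 controls, can then enter through the HepG2 controls alone, so this rise is a description. The members were chosen on these same contrasts, so nothing is read from the counts.

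The difference between the lines in the response to HME, taken as the HepG2 minus the Ls174 log2 change, was 1.36 ± 0.84 for PLAUR, 1.22 ± 0.44 for TFPI and 1.11 ± 1.14 for THBS1. For PLAU it has no defined size, since the 6 Ls174 libraries are at 0. The THBS1 value rested on 7 Ls174 counts and ranged from 0.51 to 1.91 when each library was left out, the lowest without Ls174 control 1 and the highest without Ls174 HME 3. The TFPI value was 0.82 without Ls174 control 3. edgeR called 0 of the 4 genes that entered this test, with 1 higher at an unadjusted p under 0.05 (7.42% of all tested genes higher and 5.75% lower) and 0 called by DESeq2, and it called 0.613% of 13040 genes in the positive and 0.0307% in the negative direction (80 and 4 genes, against 315 and 82 by DESeq2).

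The order of the group means was the same for PLAU, TFPI and THBS1 in that both HepG2 groups lay above both Ls174 groups. PLAU ran from HepG2 HME to HepG2 control and then to the Ls174 groups at 0. TFPI ran from HepG2 HME (152 ± 9.62 CPM) to HepG2 control (126 ± 30.7), Ls174 control (15.7 ± 6.82) and Ls174 HME (8.22 ± 0.338), and the first neighbours in this order overlapped. THBS1 ran from HepG2 HME (54.4 ± 9.97 CPM) to HepG2 control (31.6 ± 7.19), Ls174 control (0.532 ± 0.495) and Ls174 HME (0.336 ± 0.327), where the last neighbours overlapped. For PLAUR the order was HepG2 HME (11.5 ± 5.28 CPM), Ls174 control (7.44 ± 3.04), Ls174 HME (7.25 ± 2.27) and HepG2 control (4.35 ± 3.53), and all neighbours overlapped.

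The counts of the 6 genes came mainly from 1 or a few 3′ regions each, and no region with counts overlapped a region of another gene. F3 was counted only at chromosome 1, 94994584 to 94996026, which covers the 3′ UTR of the main transcript. PLAU was counted to 99.6% at chromosome 10, 75676324 to 75677452, and THBS1 to 97.5% at chromosome 15, 39887571 to 39891864, both covering the 3′ UTR of the main transcript. In Ls174 cells 5 of the 7 THBS1 counts lay instead in a region inside the coding sequence (39874609 to 39874805) where an annotated short coding transcript ends.

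TFPI used several ends. The most distal region (chromosome 2, 188328760 to 188331728), the 3′ UTR of the main transcript, held 54.8% of its counts in HepG2 controls (95% exact binomial interval 51.7 to 57.8%, 1041 counts) and 48.4% with HME (45.4 to 51.5%, 1082 counts). Per library these shares overlapped, at 53.7, 58.4 and 54.5% without and 45.6, 46.7 and 56.2% with HME. The middle region (188332405 to 188332601), which spans the end of a coding exon and the adjoining intron, held 25.6% and 28.4%. The most proximal region (188343108 to 188343402) lies in an intron of the main transcript and is the end of coding transcripts with a different last exon. It held 19.6% (17.2 to 22.1%) in HepG2 controls and 23.2% (20.7 to 25.8%) with HME, and 3.18% (1.04 to 7.28%, 157 counts) in Ls174 controls and 2.82% (0.343 to 9.81%, 71 counts) with HME. TFPI is known as a soluble form and as a membrane-anchored form with another C terminus. Per library the proximal share was 21.3, 11.4 and 21.6% in HepG2 controls, 21.9, 25.7 and 20.4% with HME, 0, 0 and 5.49% in Ls174 controls and 0, 4.17 and 4.17% with HME, so that every HepG2 library lay above every Ls174 library. The intervals pool the reads of a group and cover counting error only. With the distal region alone, the log2 difference between untreated lines was 2.41 in place of 3.01.

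PLAUR had a main end at chromosome 19, 44152531 to 44153041, shared by 4 annotated transcripts, and a distal end at 44150050 to 44150608, where 1 coding transcript ends. The distal end held 2, 1 and 8 counts in HepG2 controls and 0 in all HepG2 HME libraries, that is 28.9% (exact 95% interval 15.4 to 45.9%) of 38 counts against 0% of 75 counts, with an upper bound of 4.80%. In Ls174 cells it held 0, 3 and 4 counts without HME and 1 in each HME library, 9.86% and 4.84%. With the main end alone, the log2 change with HME in HepG2 cells was 1.93 in place of 1.33.

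**Figure D3:**
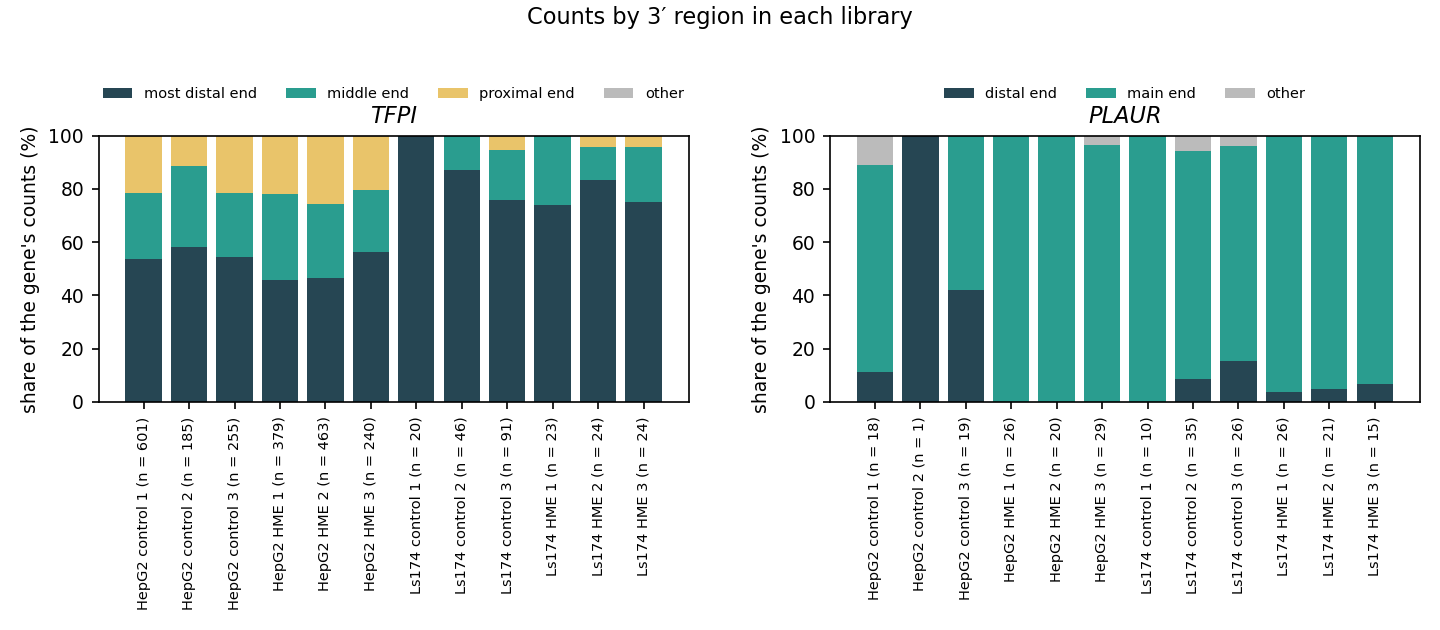
Share of the counts of TFPI (left) and PLAUR (right) in each 3′ region, in percent, for the 12 libraries, with the number of counts of the gene in brackets. The proximal end of TFPI takes 11.4 to 25.7% in HepG2 libraries and at most 5.49% in Ls174 libraries, and the distal end of PLAUR is at 0 in the HepG2 HME libraries. HepG2 control 2 has 1 PLAUR count.

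Around the 6 genes, 114 further genes of plasminogen activation, clotting, protease-activated receptors, matrix proteases, integrins and thrombospondins were listed, of which 109 had a count, and they were tested in the fit of all genes. In HepG2 cells 66 of them passed the filter, 5 rose with HME and 0 fell at an adjusted p under 0.05 (edgeR), and DESeq2 called 7 higher and 4 lower. Of all tested genes, edgeR called 2.77% higher and 0.538% lower. At an unadjusted p under 0.05, 9 were higher and 9 lower, where 11.3% of all tested genes were higher and 10.9% lower. Library-size scaling called 2 higher, MMP3 and ITGA2, and 1 lower, LRP1. The count of 5 was 1 or 2 without any HepG2 library other than control 2. In Ls174 cells 43 passed, 0 rose and 2 fell by edgeR, and DESeq2 called 0 higher and 8 lower. There edgeR called 0.318% of all tested genes higher and 0.866% lower. At an unadjusted p under 0.05, 0 were higher and 18 lower, where 5% of all tested genes were higher and 8.55% lower. The count of 2 was 16 without Ls174 control 1 and 0 without any other Ls174 library. Between the untreated lines 35 of 68 were higher and 10 lower in HepG2 cells, beside 14.2% and 9.33% of all tested genes. The median log2 change of the tested genes was -0.18 in HepG2 and -0.48 in Ls174 cells, beside -0.04 and 0 over all tested genes.

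Of 27 genes of plasminogen activation, 19 passed in HepG2 cells. Of these, 2 serpins were called higher with HME and 0 genes lower (edgeR), beside 2.77% and 0.538% of all tested genes. At an unadjusted p under 0.05, 3 were higher and 5 lower, where 11.3% of all tested genes were higher and 10.9% lower. The groups did not overlap for 2 higher and 7 lower, beside 15.5% and 15.3% of all tested genes. SERPINE2 (protease nexin 1, an inhibitor of urokinase and thrombin) went from 72.4, 30.9 and 79.9 to 155, 202 and 218 CPM, a log2 change of 1.67 ± 0.38 (edgeR, adjusted p = 0.0477). SERPINB8, an intracellular serpin, went from 2.40, 2.47 and 1.21 to 13, 7.35 and 8.36 CPM (2.23 ± 0.52, edgeR adjusted p = 0.0495). With 9, 4 and 3 counts in the controls, SERPINB8 passed the filter only through the HME libraries, so its values are a description. Both calls were lost under library-size scaling (0.0618 for SERPINB8 and 0.0832 for SERPINE2) and when any 1 of HepG2 control 1, HepG2 control 3 or the HME libraries was left out, with adjusted p values of 0.0784 to 0.180, while without HepG2 control 2 both remained past the threshold. SERPINE2 was also lost in a fit of all 12 libraries (0.125). PLG, plasminogen itself, had 8, 1 and 11 counts in HepG2 controls and 10, 16 and 2 with HME, and 0 in all Ls174 libraries. SERPINB2 had 1 count in 12 libraries.

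Several genes whose products bind plasminogen or clear urokinase at the cell surface were measured in both lines. PLGRKT, a plasminogen receptor, had 3.64 ± 0.400 CPM in control HepG2 and 26.3 ± 7.69 CPM in control Ls174 cells (log2 difference -2.80 ± 0.44, edgeR adjusted p = 0.00174). ANXA2, the annexin that binds plasminogen and tissue plasminogen activator with S100A10, had 66.6 ± 29.0 against 239 ± 38.9 CPM (-1.81 ± 0.39, adjusted p = 0.00818, and 0.143 in a fit of all 12 libraries). ANXA2 had 2090 CPM in HepG2 HME 2 and 85.8 and 53.8 CPM in the other HME libraries, so its log2 change of 3.5 ± 1.2 with HME (adjusted p = 0.134) rested on the library with 1130 CPM of fibroblast markers and was 0.11 ± 0.45 without it (adjusted p = 0.926). S100A10 had group means of 77.2 to 91.7 CPM, with a log2 change of 0.26 ± 0.28 in HepG2 and -0.14 ± 0.19 in Ls174 cells. LRP1, the receptor that clears urokinase with its inhibitors, had 41.7, 60.6 and 29.3 CPM in HepG2 controls and 14.6, 16.1 and 18.5 CPM with HME, groups that did not overlap, with a log2 difference of -1.42 ± 0.37 that missed the threshold (adjusted p = 0.0711) and passed it under library-size scaling (-1.52, adjusted p = 0.0471). LRP1 had 3 counts in control and 2 in HME-treated Ls174 cells. SORL1, a related sorting receptor, had 33.3, 16.7 and 21.1 CPM in Ls174 controls and fell to 4.71, 4.60 and 4.90 CPM with HME (-2.31 ± 0.37, adjusted p = 0.0344). The SORL1 call was lost when any Ls174 library other than control 1 was left out, with adjusted p values of 0.0821 to 0.274. VTN, the vitronectin gene, was at 41.3 ± 7.03 CPM in control HepG2 cells and 0 in control Ls174 cells, at least 28.1-fold higher.

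**Figure D4:**
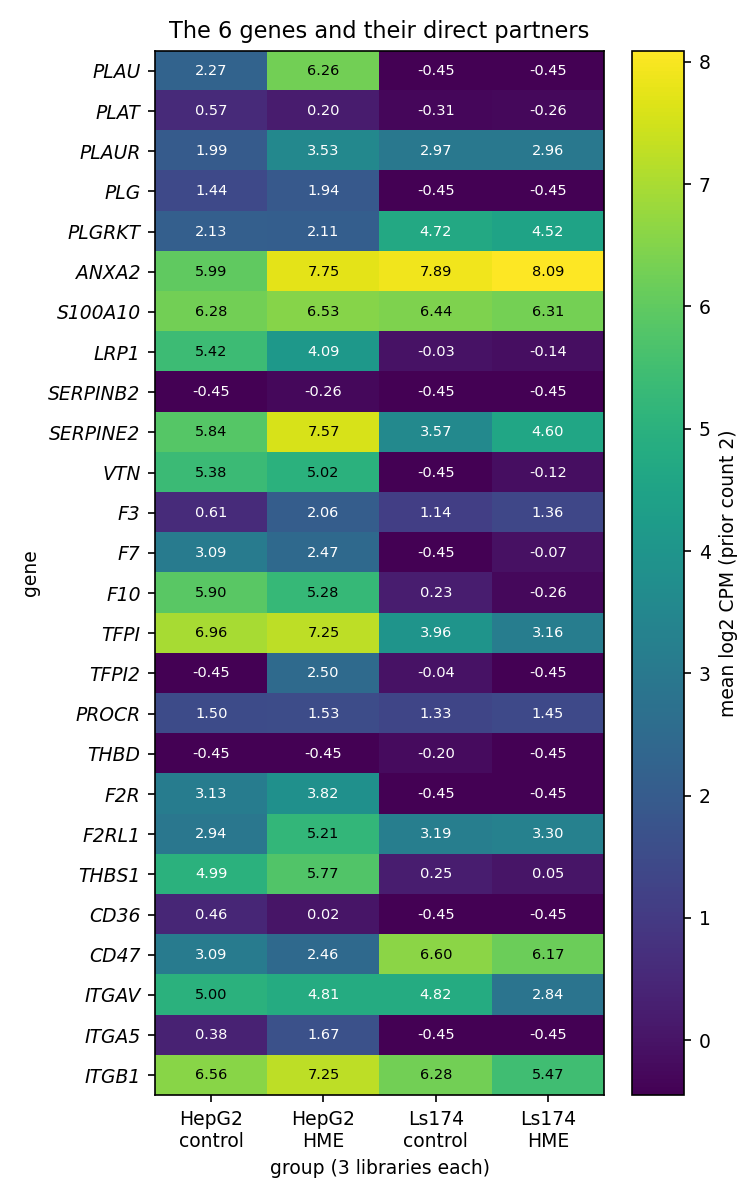
Mean log2 CPM (prior count 2) of the 6 genes and 20 direct partners in the 4 groups of 3 libraries, where -0.45 is the value of a gene with no count. PLAU and TFPI2 are higher in HepG2 HME than in HepG2 control cells, the clotting factors F7 and F10 and vitronectin (VTN) are near that floor in Ls174 cells, and the high mean of ANXA2 in HepG2 HME cells comes from 1 library.

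The clotting factors that act with tissue factor were counted almost only in HepG2 cells. F7, which encodes the ligand of tissue factor, had 8.11 ± 2.76 CPM in control HepG2 and 0 in control Ls174 cells, at least 5.53-fold higher, and F10, its substrate, 60.3 ± 16.5 against 0.764 ± 1.32 CPM (log2 difference 6.02 ± 0.89, edgeR adjusted p = 0.00121, and 10.34 without Ls174 control 3, which held the 9 Ls174 control counts). Of 28 genes of the clotting cascade, 16 of 20 that passed were called higher in control HepG2 cells and 0 lower (edgeR), beside 14.2% and 9.33% of all tested genes. The numbers were the same at an unadjusted p under 0.05, where 19.5% of all tested genes were higher and 15.4% lower. FGA, FGB and FGG, the fibrinogen chains, were 9.94 to 10.58 higher on the log2 scale than in control Ls174 cells, where their 13, 6 and 12 counts all lay in control 3, the library with the largest sum of liver markers. With HME, none of the 20 tested clotting genes was called in HepG2 cells, beside 2.77% of all tested genes higher and 0.538% lower. At an unadjusted p under 0.05, 3 were lower and 0 higher, where 10.9% of all tested genes were lower and 11.3% higher. F7 went from 8.11 ± 2.76 to 4.91 ± 1.20 CPM and F10 from 60.3 ± 16.5 to 38.9 ± 8.91 CPM, with overlapping groups and adjusted p values of 0.384 and 0.312. For 5 of the 20 the groups did not overlap, all lower with HME, where 15.3% of all tested genes were lower without overlap. Among them FGG had 2030, 2180 and 1290 CPM without and 676, 1010 and 883 CPM with HME (log2 difference -1.1 ± 0.36, adjusted p = 0.117), and FGA 1670, 1680 and 1710 against 1030, 1050 and 1340 CPM (-0.56 ± 0.3, adjusted p = 0.303). The others were SERPINC1, GGCX and P4HB, with adjusted p values of 0.197, 0.148 and 0.652. TFPI2, the paralogue of TFPI, had 0 counts in the HepG2 controls and 12, 12 and 10 counts with HME (4.72, 4.2 and 5.97 CPM), at least 2.68-fold higher than the floor of 1.85 CPM. It did not pass the filter, and in the fit of all genes with at least 1 count its adjusted p was 0.000129 (edgeR). Where TFPI2 passed the filter with 1 library left out, its edgeR adjusted p was 0.0563 without control 1 and 0.0107 without control 2. It was 0.0549 without control 3 and 0.0616 without HME 2. With 0 counts in the controls, TFPI2 entered these fits only through the HME libraries, so these values are a description. PROCR, the protein C receptor, had 2.46 ± 2.04 CPM in HepG2 controls and 2.22 ± 0.714 CPM with HME, and THBD, thrombomodulin, had 1 count in 12 libraries.

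Among the protease-activated receptors, through which clotting proteases signal, F2RL1 rose in HepG2 cells from 10.9, 2.47 and 11.2 to 29.5, 34.7 and 46.6 CPM (2.13 ± 0.47 on the log2 scale, edgeR adjusted p = 0.0419). The call was lost under library-size scaling, in a fit of all 12 libraries and without any 1 HepG2 library other than control 2, with adjusted p values of 0.0674 to 0.169. F2R, the main thrombin receptor, had 12, 4.33 and 9.64 CPM without and 11.8, 12.3 and 16.7 CPM with HME, and no count in Ls174 cells. F2RL1 had 1.47, 22.2 and 14.3 CPM in Ls174 controls and 14.1, 4.95 and 10.5 CPM with HME, overlapping groups in which control 1 was the lowest library.

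Of 26 matrix proteases and inhibitors, 11 passed in HepG2 cells. Of these, 1 gene, MMP3, was called higher with HME and 0 lower, beside 2.77% and 0.538% of all tested genes. MMP3 (stromelysin 1, a protease whose precursor plasmin can activate) had 1.87, 0 and 3.21 CPM in HepG2 controls and 51.5, 59.5 and 60.3 CPM with HME, a log2 change of 4.94 ± 0.57 (edgeR adjusted p = 0.00246) that remained past the threshold under every alternative run. With 7, 0 and 8 counts in the HepG2 controls, MMP3 passed the filter only through the HME libraries, so these values are a description. In Ls174 cells MMP3 had 1 count in 6 libraries, so that MMP3 and PLAU were both near or at 0 in that line. Between the untreated lines the inhibitor TIMP3 was higher in HepG2 cells (104 ± 33.6 against 0.248 ± 0.245 CPM, adjusted p = 9.36e-05) and the matriptase gene ST14 and its inhibitor SPINT2 were higher in Ls174 cells (74.7 ± 7.19 against 2.31 ± 0.417 and 289 ± 52.7 against 0.759 ± 1.09 CPM, adjusted p = 0.000101 and 0.000119).

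Of the integrin list, 8 genes passed in HepG2 and 7 in Ls174 cells. ITGA2, a collagen receptor subunit, rose in HepG2 cells from 22.4, 17.3 and 12.1 to 46.8, 66.9 and 64.5 CPM (1.78 ± 0.35 on the log2 scale, edgeR adjusted p = 0.0248). This call was lost when HepG2 control 3 or any HME library was left out, with adjusted p values of 0.0599 to 0.116. In Ls174 cells ITGA2 had 11.2, 14.2 and 16.5 CPM without and 6.89, 1.77 and 3.92 CPM with HME (-1.75 ± 0.49, adjusted p = 0.163), and ITGAV, a subunit of vitronectin receptors, had 38.1, 28.1 and 19.3 against 4.71, 5.66 and 9.80 CPM (-2.07 ± 0.40, adjusted p = 0.0526). None of the 7 Ls174 integrin genes passed the adjusted threshold, beside 0.318% of all tested genes higher and 0.866% lower. At an unadjusted p under 0.05, 6 were lower and 0 higher, where 8.55% of all tested genes were lower and 5% higher. ITGB1 had 104 ± 49.9 and 152 ± 19.4 CPM in HepG2 and 82.7 ± 34.3 and 43.9 ± 5.43 CPM in Ls174 cells, without and with HME, and ITGA5 had 109 of its 110 HepG2 HME counts in HME 2. FN1, fibronectin, was at 1060 ± 213 CPM in control HepG2 cells and 1.52 ± 2.22 CPM in control Ls174 cells.

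Of the receptors of thrombospondin 1, CD47 had 8.64 ± 4.63 CPM in control HepG2 and 96.7 ± 8.78 CPM in control Ls174 cells (log2 difference -3.46 ± 0.47, edgeR adjusted p = 0.000802), the opposite direction to THBS1, and CD36 had 5 counts in HepG2 controls and 0 in Ls174 cells. With HME, CD47 had 4.94 ± 1.62 CPM in HepG2 cells (adjusted p = 0.430) and 72.3 ± 16.4 CPM in Ls174 cells (adjusted p = 0.434). CALR, calreticulin, which binds thrombospondin 1 at the cell surface, fell in Ls174 cells from 273, 268 and 256 to 117, 122 and 131 CPM (-1.11 ± 0.18, adjusted p = 0.0344), a call lost without any 1 Ls174 library other than control 1 (adjusted p = 0.0907 to 0.274). In HepG2 cells it had 312 ± 51.7 and 201 ± 24.7 CPM, groups that did not overlap, with an adjusted p of 0.260.

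**Figure D5:**
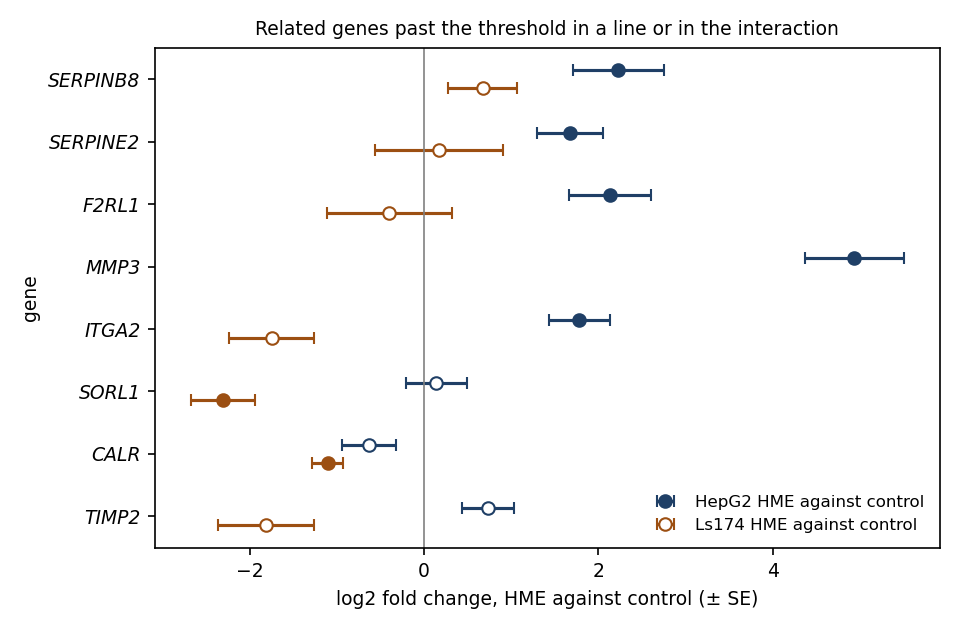
Log2 fold change of HME against control, with its SE, for the related genes past an adjusted p of 0.05 in a line or in the test of the difference between lines (blue HepG2, brown Ls174, filled where the line's own test passed). MMP3 lies at 4.94 in HepG2 cells and was not tested in Ls174 cells, and ITGA2 lies at 1.78 and -1.75.

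The other related genes that separated the untreated lines followed the lists. Among genes of plasminogen activation, 8 of 20 were higher and 3 lower in control HepG2 cells, beside 14.2% and 9.33% of all tested genes. SERPINA5, an inhibitor of urokinase and protein C, had 410 ± 115 against 0.17 ± 0.294 CPM (edgeR adjusted p = 8e-05), F11, a contact factor, 35.9 ± 14.4 against 0 CPM, and A2M, a broad protease inhibitor, 2170 ± 991 against 2.71 ± 4.7 CPM. F12, the other contact factor, was lower in HepG2 cells, with 19.2 ± 8.06 against 101 ± 19.2 CPM (log2 difference -2.36, edgeR adjusted p = 0.0026). SERPIND1, the clotting inhibitor heparin cofactor, had 175 ± 87.6 against 0.17 ± 0.294 CPM.

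Of 14 matrix proteases and inhibitors tested between the untreated lines, 7 were higher and 4 lower in HepG2 cells, beside 14.2% and 9.33% of all tested genes. The proteases CTSL (cathepsin L) and HPN (hepsin) and MST1, a protease-like hepatic growth factor, had 52.5 ± 16.7, 94 ± 73 and 221 ± 50.3 CPM against 0, 0.0848 ± 0.147 and 4.79 ± 4.94 CPM. SPINT1, an inhibitor of matriptase, and MMP14, a membrane metalloproteinase, had 0.796 ± 0.955 and 0.975 ± 0.808 CPM in HepG2 and 5.9 ± 1.38 and 7.61 ± 4.91 CPM in Ls174 cells, with calls (edgeR adjusted p = 0.0344 and 0.0287) that were lost without HepG2 control 1, HepG2 control 3 or Ls174 control 3 (0.0557 to 0.164), and for SPINT1 also without Ls174 control 2 (0.105). The epithelial integrin subunits ITGB6 and ITGA6 were lower in HepG2 cells, with 0.089 ± 0.154 against 9.53 ± 2.84 and 51.2 ± 29.6 against 255 ± 113 CPM (edgeR adjusted p = 0.00127 and 0.0141), and the ITGA6 call was lost without HepG2 control 3 (0.064). The syndecan genes SDC1 and SDC4, heparan sulfate proteoglycans that bind thrombospondin 1, were higher in HepG2 cells with 289 ± 20.8 against 82.2 ± 29.7 and 129 ± 11.1 against 39.7 ± 3.71 CPM. STIM1, a calcium sensor, had 41.3 ± 12 against 15 ± 3.2 CPM (edgeR adjusted p = 0.019), a call lost under library-size scaling (0.0521) and without HepG2 control 1, HepG2 control 3 or Ls174 control 2.

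PLAUR and TFPI were the genes of the 6 tested in both lines, and their pattern over the 12 libraries was set against that of 13039 genes, each centred on its mean within a line on the log2 scale. The genes most like PLAUR were ELF4, RPS2P7 and NHEJ1, with Pearson's r of 0.966, 0.965 and 0.961, and those most like TFPI were EMP2, TGFBR3 and TMEM123, with 0.872, 0.866 and 0.861. These r describe 12 libraries that share depth and the libraries that lay apart, and they were the highest among all the genes compared.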

How the data were processed

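Total RNA of HepG2 and Ls174 cells was made into 3′ QuantSeq libraries and read on an Ion Proton instrument. The authors checked reads with FASTQC, aligned them to hg19 with Hisat2 at default settings and passed them to metaseqR2, and they deposited whole-number counts per 3′ region of each gene for each library. The labels also list Bowtie2 and Trimmomatic, and the versions are not given in the sources used here. Reads without molecular identifiers can be copies of 1 molecule, internal priming can add regions inside a gene, and region sums depend on the annotated ends.

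Counts were summed over all regions of a gene. Libraries were grouped by their labels. Genes passing filterByExpr were tested by edgeR's quasi-likelihood F test (edgeR 4.0.16, R 4.3.3, TMM) in the libraries of each comparison, or in all 12 for the difference between lines, and p-values were adjusted by Benjamini-Hochberg over all tested genes. A call is an adjusted p under 0.05. A gene near 0 in either group could pass the filter only through the other group, and its values are then a description. SE is the log2 change divided by the square root of F. Fold bounds used a floor of 3 counts in the shallowest library, and log2 CPM used a prior count of 2. Region shares carry exact Clopper-Pearson intervals. The fit was tested on simulated data. Depth was 1790841 to 3656662 counts per library. No replicate pair agreed within sampling noise, with chi-square per degree of freedom of 4.44 to 54.1.

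Alternatives were library-size scaling, DESeq2 1.42.0, a filter of at least 1 count, 1 fit of all 12 libraries, replicate number as a block, the thresholds of the methods (unadjusted p under 0.05 and an absolute log2 change over 0.58), a binomial test on summed counts, leaving out each library, and the main region of each gene alone. The genes and lists were chosen with earlier results of these data known. Named were the 6 genes, 20 direct partners, up to 4 called genes with non-overlapping groups per list, comparison and direction, and the 3 genes most like each member tested in both lines. Marker genes, and SERPINC1, GGCX and P4HB, were named after their values were seen. The summed CPM of endothelial markers was 5.62 to 21.1 in HepG2 and 2.45 to 9.26 in Ls174 libraries, and that of platelet and blood markers 97.7 to 554 and 0.354 to 5.60. In HepG2 libraries nearly all of the platelet and blood sum was 1 gene, LYZ, at 90.3 to 548 CPM. PTPRC, PPBP, PF4, GP9, GP1BA and HBB had no count there.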

Additional observations from a re-analysis of the deposited data

Results flagged for a closer look

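For 3 of the 74 related genes tested, the log2 change with HME differed between the lines in edgeR's test of the difference itself. All 3 were in the positive direction, beside 0.613% of all tested genes in the positive and 0.0307% in the negative direction. ITGA2, a collagen receptor subunit, had a difference of 3.51 ± 0.57 (HepG2 minus Ls174, SE, adjusted p = 0.0125). Its groups did not overlap in either line, being higher with HME in 3 of 3 HepG2 libraries and lower in 3 of 3 Ls174 libraries, and over the alternatives its adjusted p ranged from 1e-06 to 0.0634, the highest without Ls174 HME 3.

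TIMP2, an inhibitor of matrix metalloproteinases, had 83.1, 67.4 and 91.2 CPM in HepG2 controls and 108, 150 and 139 CPM with HME. In Ls174 cells it had 8.80, 4.63 and 4.33 CPM without and 1.45, 1.77 and 1.63 CPM with HME. The difference was 2.50 ± 0.48 (edgeR adjusted p = 0.0311), with adjusted p values of 0.00204 to 0.124 over the alternatives.

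SORL1, a sorting receptor, had 21.4, 28.4 and 21.7 CPM in HepG2 controls and 34.6, 23.1 and 20.3 CPM with HME, overlapping groups beside the drop in Ls174 cells. The difference was 2.44 ± 0.49 (edgeR adjusted p = 0.0360), with adjusted p values of 0.0013 to 0.138 over the alternatives. What produced these 3 differences was not tested.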

How the results depend on the processing

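Of the 6 genes' log2 values under the alternatives, 167 moved by less than the SD between replicates on the log2 scale and 9 by more, and no called value changed sign, and of those of the named related genes 333 kept and 78 lost their call, with 0 reversed. In HepG2 cells the called genes numbered 375 of all, 5 of the related genes and 1 of the 6. DESeq2 gave 1033 and 11, a filter of at least 1 count 1407 and 12, 1 fit of all 12 libraries 807 and 3, the thresholds of the methods 2517, 18 and 2, and the binomial test 7556, 54 and 3. Library-size scaling called 3 of the related genes, of which 2 were among the 5 and 1, LRP1, was lower. Leaving out each library gave 95 to 921 of all and 1 to 7 of the related genes. In Ls174 cells the numbers were 134, 2 and 0. DESeq2 gave 438 and 8, a filter of at least 1 count 604 and 12, the thresholds of the methods 1353, 17 and 1, the binomial test 5529, 35 and 1, and leaving out each library 0 to 979, 0 to 16 and 0 to 1. Between untreated lines, 2798 genes were called and 4631 in 1 fit of all 12 libraries. For the difference between lines the numbers were 84, 3 and 0. Library-size scaling gave 49 and 1, DESeq2 397 and 7, a filter of at least 1 count 367 and 8, the thresholds of the methods 1718, 18 and 1, and leaving out each library 17 to 143 and 0 to 4. The binomial test has no term for the spread between replicates, and the causes of the other moves were not tested.

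With the replicate block, 3 related genes were called in HepG2 cells, without SERPINB8 (adjusted p = 0.0806) and SERPINE2 (0.0549), 0 genes of all and 0 related genes in Ls174 cells, and 37 and 1 for the difference between lines. Whether the numbers pair the samples could not be settled with 3 libraries per group. The correlations of same-numbered control and HME libraries, each centred on its group mean, were -0.167, 0.0884 and -0.124 in HepG2 cells. In Ls174 cells they were -0.0363, -0.00777 and -0.0541, and only HepG2 control 2 was closest to its own number. Library-size scaling shifted the median of all genes by -0.15 in HepG2 cells and by -0.21 between the untreated lines. At this depth PLAT and F3, and THBS1 in Ls174 cells, allow no statement on a change.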
